A study of Mus musculus with 8 samples.

Results

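Mitochondrial ribosomal protein genes were examined in 8 RNA sequencing libraries of mouse osteoblastic cells cultured with or without locamidazole (LAMZ), a synthetic compound. Members were all gene symbols made of Mrpl or Mrps and a number, with an optional letter a to c, and symbols of pseudogenes were left out. This gave 78 genes of 51822 symbols in the files, 49 with Mrpl (large subunit) and 29 with Mrps (small subunit) symbols. All 78 passed the filter on low values (2 or more libraries reaching an RPKM of 1), as did 12514 genes in total. RPKM is the number of reads of a gene divided by its length in kilobases and scaled to the mapped reads of the library.

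The 4 groups were cells given DMSO, the solvent (control), or LAMZ at 1 μmol/L, and sampled after 7 or 14 days, at 2 libraries per group. The culture medium of all groups was osteogenic: α-MEM with fetal bovine serum, ascorbic acid, dexamethasone and β-glycerophosphate. The sample labels name MC3T3-E1, a line derived from mouse calvaria, whereas the study's methods and the title of the series name calvarial cells, which would be primary cells of neonatal mice. Nothing states whether the 2 libraries of a group came from separate cultures, so p-values measure only the spread between libraries, which may be technical.

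The mitochondrial ribosome translates the few messenger RNAs of mitochondrial DNA, which encode core subunits of the respiratory chain and of ATP synthase. Its ribosomal RNAs come from mitochondrial DNA, but all its proteins are encoded in the nucleus, made in the cytosol and imported. Some of these proteins have counterparts in the bacterial ribosome, and others are found only in mitochondria. Symbols do not always follow the assembled particle: Mrps18a and Mrps30 belong to the large subunit, and Mrps36 is a protein of the 2-oxoglutarate dehydrogenase complex. By assembled particle, the members comprised 30 large subunit proteins with bacterial kin, 21 mitochondria-specific large subunit proteins, 16 small subunit proteins with bacterial kin and 10 mitochondria-specific small subunit proteins, besides Mrps36.

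The mapped reads recovered from the RPKM values ran from 3463538 to 5832101 per library, and the members together held 3958 to 7358 reads of a library, or 0.108% to 0.136% of the mapped reads. A single member had 15 to 409 reads in a library (median 63), and 18 of the 78 members had fewer than 30 reads in at least 1 library. The median SE of a member's log2 fold change was 0.17, so modest changes of single genes could not be resolved at this depth. The 11 osteoblast marker genes summed to 7207 to 18915 RPKM over the libraries, and 7 of them were higher with LAMZ on each day. Such calls were made at an adjusted p under 0.05, at which 4.35% of all tested genes were higher and 8.49% lower on day 7. On day 14, these shares were 6.96% and 16.0%. Of 14 macrophage marker genes, 12 were lower with LAMZ on day 7 and 13 on day 14, and their summed RPKM was 467 to 608 in control and 8.20 to 9.97 in LAMZ libraries on day 7, and 1135 to 1182 against 7.85 to 8.70 on day 14. Macrophage transcripts were therefore present in control cultures and nearly absent with LAMZ, and their part in any result below was not tested. In bulk libraries, fewer cells of a type and less RNA per cell cannot be told apart. Summed RPKM of the 6 endothelial markers stayed at or under 2.84, and 1 of them was lower on each day. Adipocyte markers (5 genes) summed to 1.60 to 71.5 in control and 0.470 to 1.19 in LAMZ libraries, with 2 lower on day 14, and skeletal muscle markers (6 genes) summed to 1.58 to 4.98 except in day 14 LAMZ libraries, at 20.1 to 24.7, with 1 gene higher on day 14.

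Promoter sequences were examined for short motifs of factors known to act on nuclear genes for mitochondrial proteins. RefSeq promoters (250 bases before to 50 bases after the start, GRCm38.p6) were matched for 69 of the 78 members and for 16498 protein-coding genes. CCGGAAG, a core bound by ETS family factors, was found on either strand in 37.7% of the members' promoters and in 13.4% of all coding genes' promoters. ATGGCGGC, a YY1 core, was found in 17.4% of members and 3.62% of coding genes, and an NRF1 core of 10 letters, spelled in capitals in the Mrpl9 stretch, in 4.35% and 1.53%. By contrast, GGGCGG (SP1) was found in 49.3% of members and 51.0% of coding genes, CCAAT in 39.1% and 42.1%, TATAAA in 7.25% and 14.3%, and TCAAGGTCA (an estrogen-related receptor core) in 0 of 69 members and 0.388% of coding genes. The motifs do not contain one another, and a match is a description of letters, not of binding. Large and small subunit symbols held the ETS core in 34.9% and 42.3% of promoters, respectively. Stretches around a match are printed 5′ to 3′ for 3 genes, with the match in capitals, to show it in a gene called higher on day 14 (Mrpl17), in one called lower on day 7 (Mrpl58) and in the one farthest above its subunit on day 7 (Mrpl9).
Mrpl17 (ETS core, chr7:105811278-105811337, minus strand): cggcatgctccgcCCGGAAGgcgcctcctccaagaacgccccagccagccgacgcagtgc
Mrpl58 (ETS core, chr11:115403692-115403751, plus strand): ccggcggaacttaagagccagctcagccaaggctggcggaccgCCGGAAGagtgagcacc
Mrpl9 (NRF1 core, chr3:94443276-94443317, plus strand): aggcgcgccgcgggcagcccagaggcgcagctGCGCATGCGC
The matches began 237, 17 and 28 bases before the RefSeq start, respectively.

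The members lay on 17 chromosomes. In the GENCODE M21 annotation (GRCm38), 18 of the 78 (23.1%) had a protein-coding neighbour that starts within 1000 bases upstream on the opposite strand, as against 6.73% of 21955 protein-coding genes. Mrps18b (chr17:35910379-35916389, minus strand) starts 45 bases from Ppp1r10, Mrpl57 49 bases from Ska3, Mrpl50 83 bases from Zfp189, and Mrps12 172 bases from Sars2, the mitochondrial seryl-tRNA synthetase. A pair of members, Mrpl46 (chr7:78775236-78783531, minus strand) and Mrps11 (chr7:78783119-78792989, plus strand), overlap at their 5′ ends. Exons of 28 members overlap a gene on the other strand and those of 8 members a gene on the same strand. The sources used here do not state whether counting used the strand, so reads of the called genes Mrpl12, Mrpl21, Mrps18b and Mrpl58 cannot be told apart from those of Gm16755, Ighmbp2, Gm16279 and Ict1os over the shared exons.

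Levels of the members were moderate and spread over more than an order of magnitude. Large subunit symbols had a median RPKM, averaged over the 8 libraries, of 7.02 (range, 1.45 to 23.1), small subunit symbols of 5.86 (1.13 to 31.1), and all tested genes of 4.24. Mrps16, the counterpart of bacterial S16, was highest at 31.1 RPKM (20.9 to 35.9 over the libraries), and was followed by Mrps21 at 29.0 (25.4 to 31.8), the counterpart of S21. Mrpl28 at 23.1 (18.6 to 35.8), Mrps6 at 21.3 (12.9 to 27.8) and the mitochondria-specific Mrpl54 at 19.7 (17.1 to 21.9) came next. The ranges of these 5 genes overlapped between all neighbours in this order. The lowest were Mrpl1 at 1.45 (0.997 to 2.40), Mrps22 at 1.40 (0.770 to 2.26) and Mrps35 at 1.13 (0.799 to 1.53), whose ranges also overlapped.

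The order of levels followed gene length. Across the 78 genes, Spearman's rho of mean RPKM with the length recovered from the values was −0.83, a description across genes that share libraries and in which the length is also the denominator of RPKM. The 25 members under 1500 bases had a median RPKM of 11.8, and the 27 members of 3000 bases or more had 2.73. Mrps16 had the shortest recovered length, 566 bases, while the GENCODE M21 exons of this gene span 2875 bases, so its first rank depends on the gene model used for the deposited values. Recovered and annotated lengths were equal for 60 of the 78 members, where the annotated length was tried first and kept if it gave whole reads. Log2 fold changes with LAMZ had a rho with length of 0.099 on day 7 and −0.11 on day 14.

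**Figure D1:**
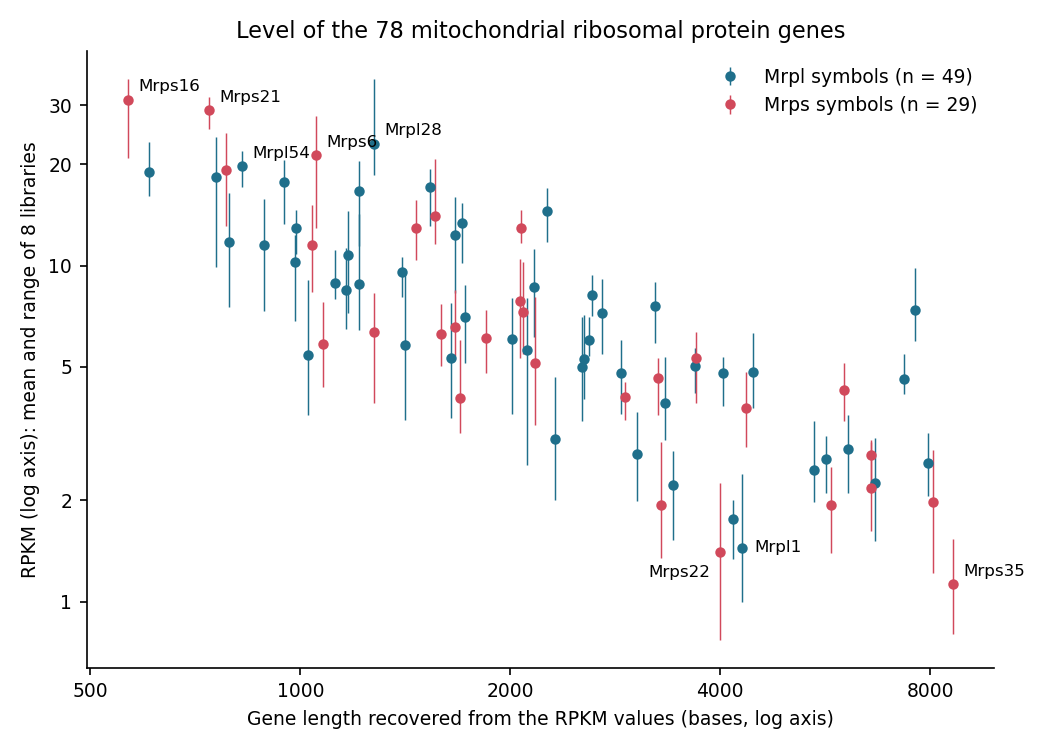
Mean RPKM of each member (points) and its range over the 8 libraries (lines) against the gene length recovered from the values, both on log axes. Large and small subunit symbols are mixed over the plot, from Mrps16 at 31.1 RPKM and 566 bases to Mrps35 at 1.13 RPKM and 8631 bases.

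The first question was whether LAMZ changed these genes on day 7. With RPKM as deposited, few were called. At an adjusted p under 0.05, 2 of the 78 members were lower with LAMZ and none was higher. Both were of the large subunit. The test was limma on log2(RPKM + 1) over all tested genes, with Benjamini-Hochberg adjustment. Of all tested genes, 4.35% were higher and 8.49% were lower by this test, so the members' shares of 0% and 2.56% were under the background. An unadjusted p under 0.05 was found for 3 members above and 5 below 0 (10.3% in all), as against 28.0% of all tested genes. The median log2 fold change was −0.03 for large and −0.04 for small subunit symbols, as against −0.08 for all tested genes. LAMZ libraries lay wholly above control libraries for 13 members and wholly below for 23 (16.7% and 29.5%), as against 20.4% and 35.9% of all tested genes. Once every library was given the same summed RPKM, 15 members were lower and 0 higher (all tested genes, 3308 lower and 311 higher).

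Mrpl55, the counterpart of bacterial L31, showed the largest day 7 fall. Its RPKM was 9.04 and 6.47 in control and 3.65 and 4.49 in LAMZ libraries, a log2 fold change of −0.78 (SE 0.18, adjusted p = 0.0276). Each of these libraries held 16 to 35 reads of the gene. On day 14, it read 6.35 and 5.38 RPKM in control and 4.34 and 3.59 in LAMZ libraries (log2 fold change, −0.47; SE 0.18; adjusted p = 0.0963). Both LAMZ libraries were thus below both control libraries on each day, and averaged over the days Mrpl55 was lower with LAMZ by a log2 fold change of −0.62 (SE 0.13, adjusted p = 0.00778). This averaged call was also made under all 19 alternatives run for it.

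Mrpl58 (also called Ict1), a peptidyl-tRNA hydrolase of the large subunit that releases stalled ribosomes, was the other gene called on day 7. It read 5.33 and 5.20 RPKM in control and 3.24 and 3.63 in LAMZ libraries (log2 fold change, −0.50; SE 0.12; adjusted p = 0.0339). On day 14, control libraries read 3.02 and 3.52 and LAMZ libraries 3.65 and 3.57 RPKM, so the groups were separated by little and the log2 fold change was 0.11 (SE 0.12, adjusted p = 0.541). Between the days, control cells fell by 0.56 on the log2 scale (adjusted p = 0.0453), and LAMZ cells gave 0.06 (adjusted p = 0.789). These contrasts share the control libraries.

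Other members stood apart from their subunit on day 7 without a call. Mrpl9, the counterpart of L9, read 5.99 and 5.55 RPKM in control and 9.11 and 8.66 in LAMZ libraries (log2 fold change, 0.55; SE 0.17; adjusted p = 0.0740), and Mrps16 read 29.99 and 20.9 against 32.3 and 35.9 (0.43; SE 0.18; adjusted p = 0.157). Mrpl36 gave 0.41 (SE 0.21, adjusted p = 0.253). Below their subunit, Mrpl46 gave −0.60 (SE 0.27, adjusted p = 0.191), with its control libraries far apart at 9.75 and 5.92 RPKM. Mrps28, the counterpart of S1, read 23.4 and 21.8 RPKM in control and 14.7 and 15.7 in LAMZ libraries (−0.54; SE 0.17; adjusted p = 0.0724), and the groups did not overlap.

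Day 7 calls depended on single libraries. Control replicate 1 was higher than replicate 2 for 66 of the 78 members, with a median log2 difference of 0.20, while the median over all tested genes was 0.055. Without replicate 1, the members' median log2 fold change was 0.057 instead of −0.043, no member was lower and Mrps16 alone was higher. Without replicate 2, Mrpl55 and Mrps23 were lower. Neither gene was called without day 7 LAMZ replicate 1 or 2, with the 4 day 7 libraries alone, or by voom on the recovered reads. Mrpl55 alone was called without either day 14 LAMZ library, and without either day 14 control library, which enters only the spread, Mrps28 was lower and Mrpl9 higher as well.

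On day 14, LAMZ cells had higher levels of 9 members, 7 of the large and 2 of the small subunit, and no member was lower with RPKM as deposited, whereas none was higher and 14 were lower once every library was given the same summed RPKM. That last scaling gave 468 of all 12514 tested genes higher and 5400 lower. With RPKM as deposited, the 9 genes are 11.5% of the members, as against 6.96% of all tested genes higher and 16.0% lower. The higher genes were Mrpl12, Mrpl17, Mrpl21, Mrpl23, Mrpl38, Mrpl41, Mrpl57, Mrps18b and Mrps28, with log2 fold changes of 0.43 to 0.72. The median log2 fold change was 0.12 for large and 0.07 for small subunit symbols, whereas it was −0.15 for all tested genes. Of the 78 members, 52 (66.7%) had a log2 fold change above 0, as against 35.2% of all tested genes. LAMZ libraries lay wholly above control libraries for 26 members (33.3%; all tested genes, 20.1%) and wholly below for 11 (14.1%; all tested genes, 44.2%). Of the large subunit symbols 14.3% were higher and of the small subunit symbols 6.90%, a difference that was not tested. At an unadjusted p under 0.05, limma gave 10 members higher and 2 lower (15.4% in all). Of all 12514 tested genes, it gave 1371 higher and 3224 lower (36.7% in all). Voom on the recovered reads gave 8 of the 9 (not Mrpl41) and none lower at an adjusted p under 0.05. No test was made of the members as a set.

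In the small subunit, Mrps18b showed the largest day 14 rise of all members. It is 1 of 3 mitochondrial relatives of bacterial S18 and read 5.44 and 6.14 RPKM in control and 10.3 and 10.1 in LAMZ libraries (log2 fold change, 0.72; SE 0.15; adjusted p = 0.0114), with 58 to 125 reads per library. On day 7 its levels were 7.62 and 5.53 against 6.40 and 6.71 RPKM, and the groups overlapped. Its relatives did not pass the test: Mrps18a gave −0.19 (adjusted p = 0.508) and Mrps18c −0.31 (adjusted p = 0.299) on day 14. The other small subunit gene, Mrps28, read 13.1 and 18.6 RPKM in control and 21.9 and 24.9 in LAMZ libraries (0.55; SE 0.17; adjusted p = 0.0486).

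Among large subunit proteins with bacterial kin, 4 of 30 were higher with LAMZ than in control on day 14 with RPKM as deposited (all tested genes, 6.96%), and none with equal sums. Mrpl12, which forms the stalk that recruits translation factors, read 13.1 and 14.1 RPKM in control and 18.7 and 18.9 in LAMZ libraries (log2 fold change, 0.43; SE 0.11; adjusted p = 0.0233). Its partner at the stalk base, Mrpl10, gave 0.13 (SE 0.18, adjusted p = 0.662). Mrpl23, which lines the exit of the peptide tunnel, had the lowest adjusted p of the members. It read 6.11 and 7.26 against 10.5 and 11.2 RPKM (0.62; SE 0.12; adjusted p = 0.00964), and the symbol of its pseudogene, Mrpl23-ps1, stayed at or under 0.498 RPKM in all libraries. Mrpl17, another protein near the tunnel exit, read 6.07 and 6.43 against 9.22 and 9.80 RPKM (0.54; SE 0.13; adjusted p = 0.0230). The fourth, Mrpl21, read 3.61 and 5.72 against 8.01 and 7.23 RPKM (0.63; SE 0.17; adjusted p = 0.0356).

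Among mitochondria-specific large subunit proteins, 3 of 21 were higher with LAMZ than in control on day 14 with RPKM as deposited (all tested genes, 6.96%), and none with equal sums. Mrpl38, a protein of the central protuberance, read 4.02 and 4.51 RPKM in control and 7.13 and 5.86 in LAMZ libraries (log2 fold change, 0.51; SE 0.13; adjusted p = 0.0255). Mrpl41 read 7.34 and 8.22 against 10.0 and 13.6 RPKM (0.53; SE 0.16; adjusted p = 0.0428), and Mrpl57 read 2.01 and 2.76 against 4.65 and 3.71 RPKM (0.62; SE 0.16; adjusted p = 0.0276), from 25 to 63 reads per library. All of these LAMZ libraries were above their controls. Mrpl44, an RNase III-like protein, gave 0.42 (adjusted p = 0.207), and Mrpl45, which anchors the ribosome to the inner membrane, gave 0.09 (adjusted p = 0.672).

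In contrast, Mrpl40, also of the central protuberance, was farthest below its subunit on day 14. It read 8.28 and 14.2 RPKM in control and 7.77 and 6.41 in LAMZ libraries, and the difference did not pass the test (log2 fold change, −0.56; SE 0.23; adjusted p = 0.124). Mrps36 read 7.75 and 6.25 against 3.90 and 5.95 RPKM (−0.45; SE 0.21; adjusted p = 0.167). Mrps30 gave 0.10 (adjusted p = 0.790). Differences between members were not tested.

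**Figure D2:**
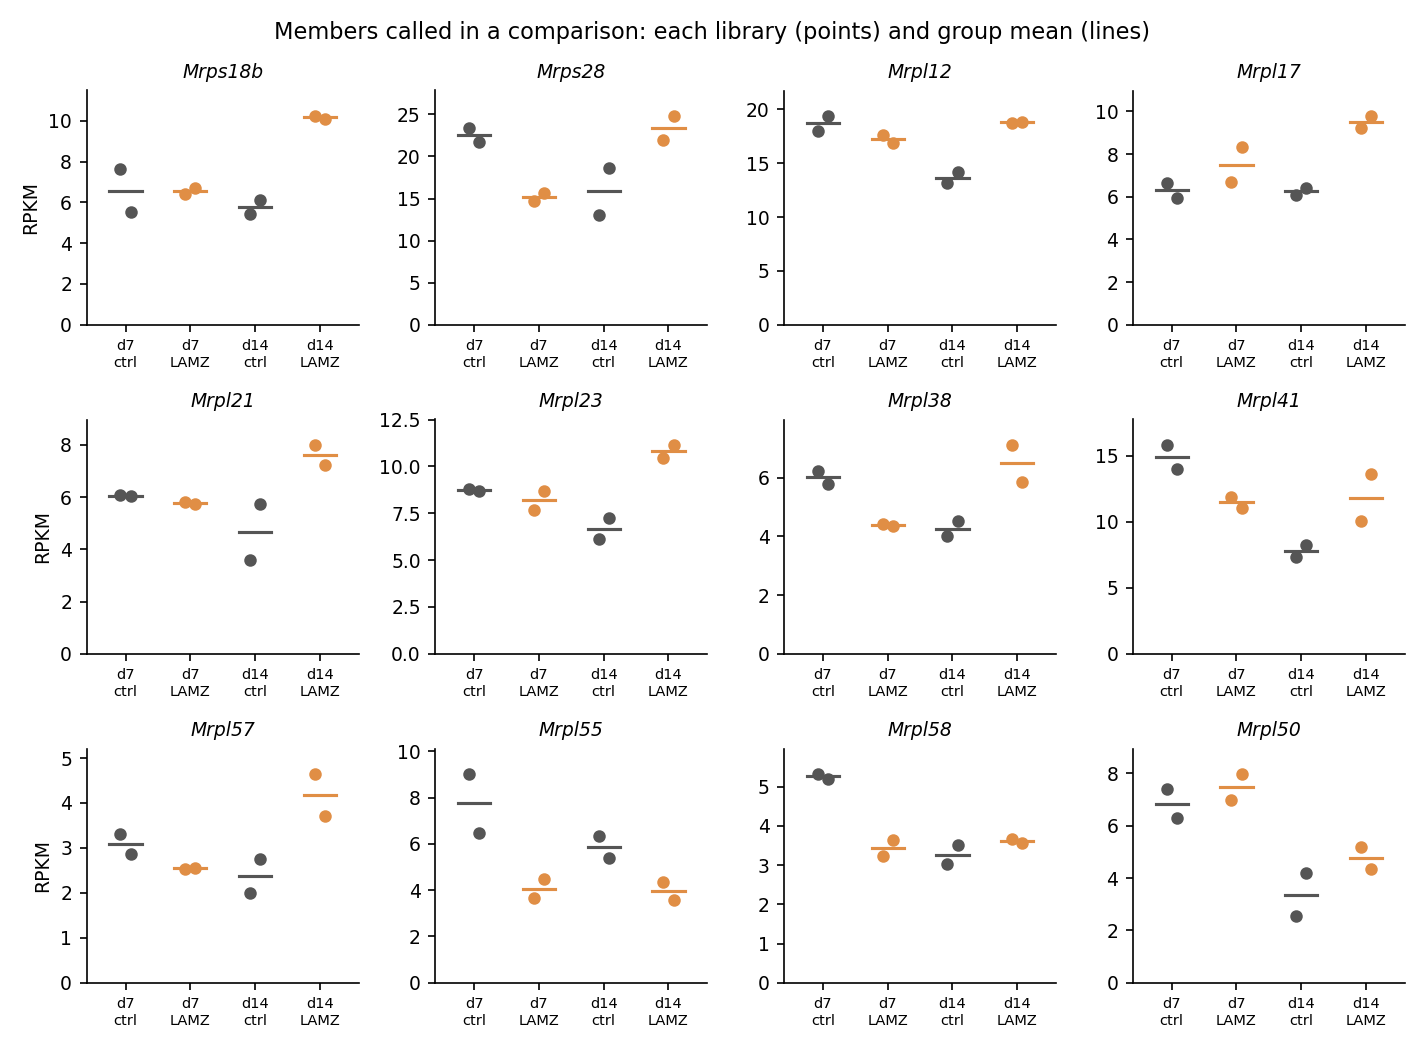
RPKM of the 12 members called in a comparison of LAMZ with control or of the days, in each library (points; gray, control; orange, LAMZ) with the group mean (lines), each panel on its own linear axis from 0. In the first 9 panels, both day 14 LAMZ libraries lie above both day 14 control libraries, and in the Mrpl55 panel the LAMZ libraries lie below the controls on each day.

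Averaged over both days, Mrpl17 (log2 fold change, 0.37; SE 0.09; adjusted p = 0.0192) and Mrps18b (0.37; SE 0.11; adjusted p = 0.0347) were higher with LAMZ and Mrpl55 was lower with RPKM as deposited. With RPKM as deposited, 9.12% of all tested genes were higher and 20.3% lower in this contrast. With equal sums neither gene was called higher, and 0 members were higher and 27 lower. Of all 12514 tested genes, 556 were then higher and 6714 lower. Centring on the median gave 17 members higher and 1 lower, beside 2010 and 1543 of all tested genes. Mrpl17 lay on the same side on both days, at 0.21 on day 7 (adjusted p = 0.340), while Mrps18b was at 0.01 (adjusted p = 0.979). Mrps18b was not called without any 1 library other than day 7 control replicate 1. Mrpl17 was not called without day 7 control replicate 2, day 7 LAMZ replicate 2, day 14 control replicate 1 or day 14 LAMZ replicate 2. The total of called members was 1 to 6 when 1 library was left out, with 5 of them higher and 1 lower without day 14 control replicate 2, and 4 and 1 without day 7 control replicate 1.

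Whether the LAMZ effect differed between the days was tested as an interaction. No member passed the test in limma, nor in limma's voom on the recovered reads, and of all tested genes 0.312% were higher and 0.312% lower. An unadjusted p under 0.05 in limma was found for 14 members (17.9%), near the share of all tested genes (16.5%). Of the 14, 13 had the more positive change on day 14. Of all tested genes with such a p-value, 758 had the more positive change on day 14 and 1303 the more negative. This difference in direction was not tested. Mrps28 had the largest increase of the effect (1.09; SE 0.24; adjusted p = 0.0897), followed by Mrpl41 (0.89; SE 0.22; adjusted p = 0.119). The largest decreases were in Mrpl40 (−0.78; SE 0.33; adjusted p = 0.294) and the mitochondria-specific Mrpl52 (−0.76; SE 0.44; adjusted p = 0.428), whose control libraries were far apart on day 7, at 20.99 and 9.90 RPKM. With libraries centred on their median or quantile normalized, Mrpl38 was called. The day 14 calls are thus not shown to be absent on day 7.

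**Figure D3:**
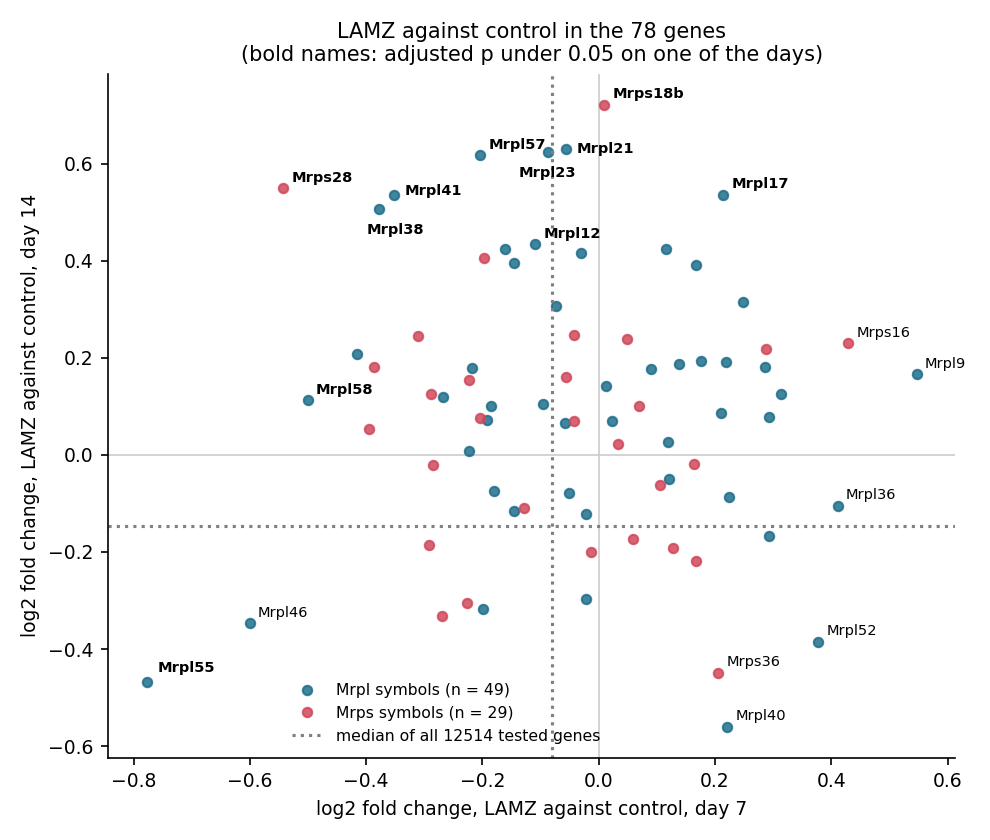
Log2 fold change of LAMZ against control for each member on day 7 (x axis) and day 14 (y axis), by symbol, with dotted lines at the median of all 12514 tested genes (−0.08 and −0.15). Members called on a day are in bold; the 9 genes called on day 14 sit at 0.43 or above on the y axis but range from −0.54 to 0.21 on the x axis.

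With time alone, 3 members fell in control cells from day 7 to day 14 and none rose (all tested genes, 2.46% higher and 2.40% lower). Mrpl41 went from 15.8 and 14.0 to 7.34 and 8.22 RPKM (log2 fold change, −0.86; SE 0.16; adjusted p = 0.0261), and the mitochondria-specific Mrpl50 from 7.40 and 6.28 to 2.55 and 4.19 RPKM (−0.87; SE 0.19; adjusted p = 0.0467). Mrpl58 was the third. In LAMZ cells, Mrpl38 (0.47; SE 0.13; adjusted p = 0.0473) and Mrps18b (0.57; SE 0.15; adjusted p = 0.0431) rose from day 7 to day 14 and none fell (all tested genes, 5.10% higher and 9.26% lower). For Mrpl12, Mrpl38 and Mrps28, the day 14 LAMZ libraries overlapped the day 7 control libraries. In the latter, Mrpl12 read 18.004 and 19.4 RPKM, Mrpl38 6.24 and 5.77 RPKM, and Mrps28 23.4 and 21.8 RPKM. For Mrpl41, both day 14 LAMZ libraries (10.0 and 13.6 RPKM) were below both day 7 control libraries (15.8 and 14.0 RPKM). For the other genes called higher on day 14, both day 14 LAMZ libraries were above both day 7 control libraries. At an unadjusted p under 0.05, limma gave 0 members higher and 14 lower in control cells (all 12514 tested genes, 1189 and 1538). In LAMZ cells these numbers were 9 and 4 (all tested genes, 1296 and 2673). At an adjusted p under 0.05, voom gave none higher and 3 lower in control cells and 2 higher and 1 lower in LAMZ cells. In control cells, no member was called without day 7 control replicate 1, either day 7 LAMZ library or day 14 control replicate 1, only Mrpl50 without day 14 control replicate 2, and only Mrpl41 without either day 14 LAMZ library. Without day 7 control replicate 2, Mrpl28 and Mrps23 were called in their place. In LAMZ cells, none was called without day 7 LAMZ replicate 2 or either day 14 LAMZ library, only Mrps6 without day 7 LAMZ replicate 1, and only Mrps18b without either day 7 control library. Without either day 14 control library, Mrps28 rose and Mrpl50 fell. Neither Mrpl38 nor Mrps18b was called with no filter, with a replicate block or with no mean-variance trend. The block gave only Mrps6, as higher, and the fit with no trend gave only Mrps22, as lower. In control cells, none was called with no filter, and only Mrpl41 with a pseudocount of 0.1, equal sums, a replicate block or no trend. The contrasts of time in control and of LAMZ on day 14 share the day 14 control libraries.

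The subunits were then compared within libraries, where scaling between libraries plays almost no part. The median log2(RPKM + 1) of large minus that of small subunit symbols was 0.09 and 0.20 in day 7 control, 0.38 and 0.38 in day 7 LAMZ, 0.00 and 0.06 in day 14 control, and 0.46 and 0.30 in day 14 LAMZ libraries. By this measure all 4 LAMZ libraries were above all 4 control libraries. With means in place of medians, the values were 0.11 and 0.17, 0.16 and 0.23, 0.00 and 0.18, and 0.20 and 0.13 in the same order, and the groups overlapped. With Mrps18a and Mrps30 counted as large and Mrps36 left out, the differences of medians ran from −0.02 to 0.28 in control and from 0.20 to 0.50 in LAMZ libraries and overlapped as well. Large subunit symbols took 62.8% to 65.9% of the members' reads in control and 65.0% to 67.3% in LAMZ libraries. A difference between the subunits therefore depended on the summary used, and it was not tested.

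**Figure D4:**
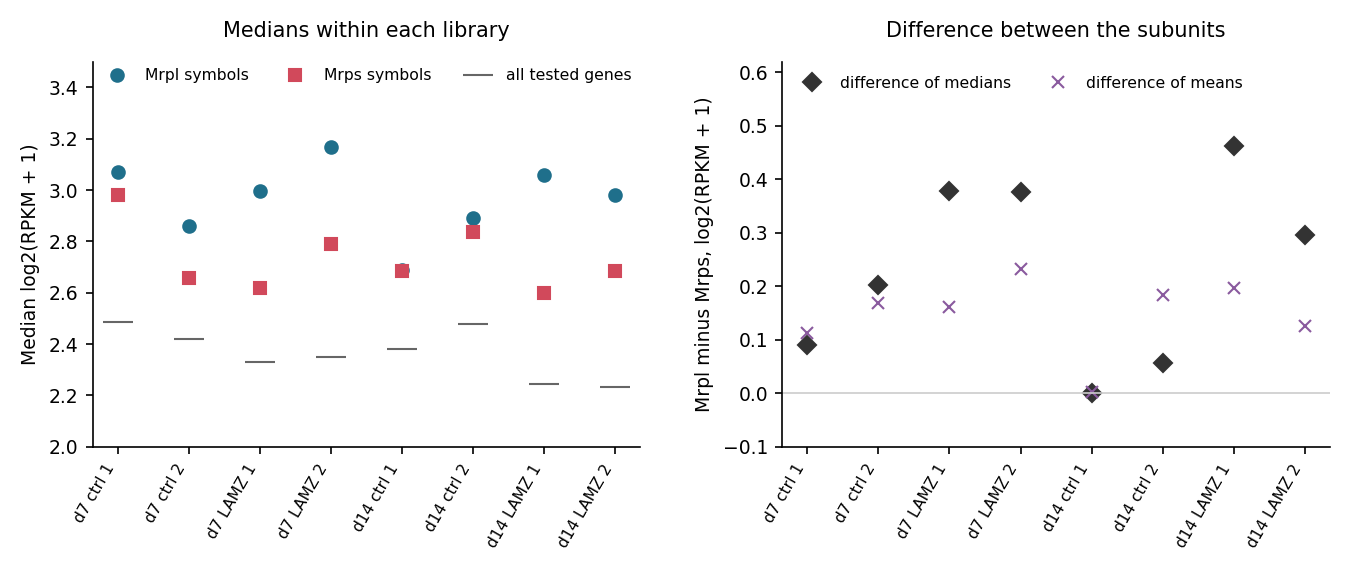
Left, median log2(RPKM + 1) of large (Mrpl) and small (Mrps) subunit symbols and of all tested genes in each of the 8 libraries; right, the large minus small difference of medians (diamonds) and of means (crosses). The diamonds of the LAMZ libraries (0.30 to 0.46) lie above those of the control libraries (0.00 to 0.20), whereas the crosses overlap.

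The sign of the members' median log2 fold change, and which members were called, depended on how libraries were scaled to each other. Small structural RNAs took 32.1% to 45.0% of the summed RPKM of tested genes in control and 45.2% to 52.6% in LAMZ libraries, with Rn7s1, the RNA of the signal recognition particle, alone at 18.2% to 33.9%. The set called small structural RNAs was taken by annotated type and symbol, and it also held ribosomal RNAs, those of the mitochondrial ribosome included. When every library was given the same summed RPKM, the median log2 fold change of all tested genes was −0.43 on day 14. Then 0 members were higher and 14 lower, none of them among the 9. Of all 12514 tested genes, 468 were higher and 5400 lower. With small structural RNAs left out of the sum, 6 members were higher and 2 lower (all tested genes, 743 and 3035). With libraries centred on their median, 13 were higher and 0 lower (1608 and 1249), and after quantile normalization 11 and 0 (1280 and 1394). On day 7, the same 4 scalings gave 0 members higher and 15 lower, 0 and 4, 1 and 1, and 1 and 1, respectively. Over all tested genes they gave 311 and 3308, 485 and 1597, 857 and 745, and 679 and 808 on day 7. On day 14, 62 to 64 of the 78 members lay above the median log2 fold change of all tested genes under the 5 scalings. RPKM as deposited is 1 of the 5. A scaling shifts members and other genes nearly alike, so this count could hardly move and shows little. It was 60 to 65 when 1 library was left out, but leaving out a day 7 library does not alter day 14 fold changes. On day 7, the count was 38 to 45 under the scalings and 37 to 48 when 1 library was left out.

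**Figure D5:**
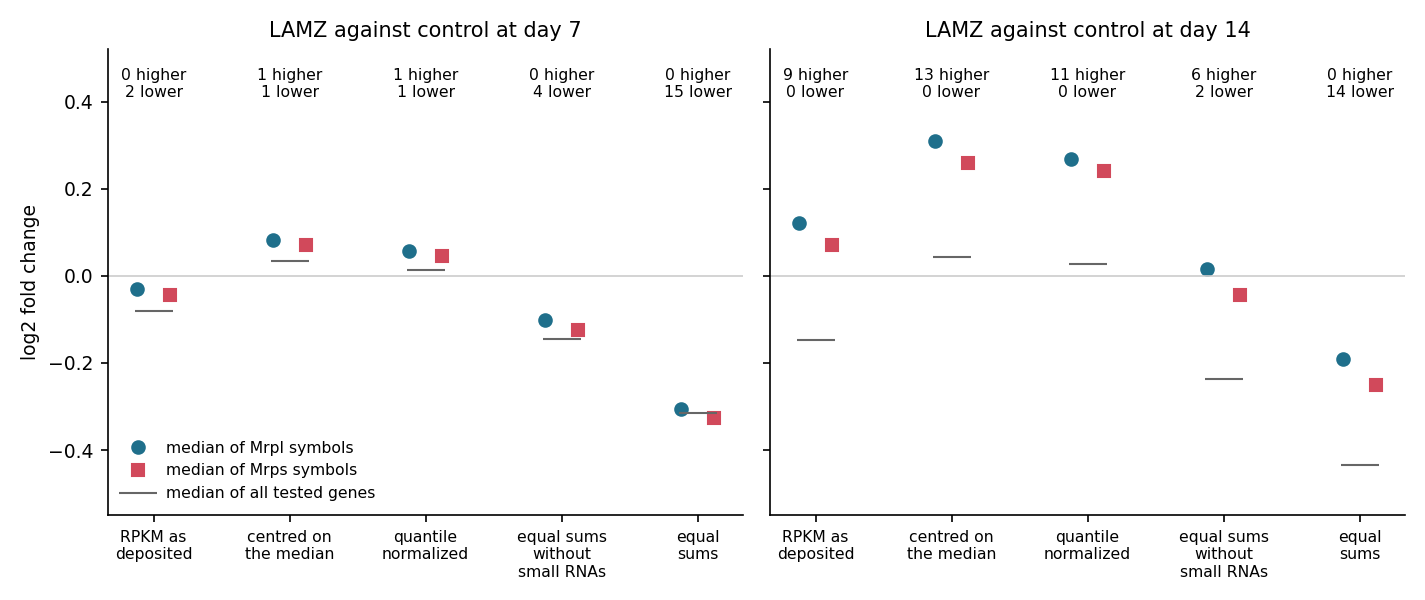
Median log2 fold change of LAMZ against control for large and small subunit symbols and for all tested genes (circles, squares and lines) under 5 scalings between libraries, on day 7 (left) and day 14 (right), with the numbers of members called printed above. On day 14 both subunits lie above all tested genes under each scaling, but both lie below 0 when libraries are given equal sums, and the small subunit also when small structural RNAs are left out of the sum (−0.04).

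Day 14 calls also depended on single libraries, since each group had 2. Without day 14 control replicate 1, 1 member (Mrpl14) was higher and 2 (Mrpl40 and Mrpl49) were lower, and none of the 9 was called. Without day 14 LAMZ replicate 1, Mrpl23 and Mrpl41 were called, without LAMZ replicate 2 only Mrpl38, and without day 7 LAMZ replicate 1, which changes only the estimate of the spread, 5 of the 9. Leaving out a library of the compared groups leaves a group of 1, which is assumed to vary like the others. All 9 genes stayed above 0 in every alternative. This was largely fixed in advance: both day 14 LAMZ libraries lay above both controls, so leaving out 1 library could not turn the sign. Mrpl23 remained called in 17 of 20 alternatives and Mrps18b in 16 of 20. Between replicates, the chi-square of a member's reads (1 degree of freedom, for which counting error alone gives a mean of 1) averaged 2.09 and 2.00 in the day 7 and day 14 control groups and 1.40 and 1.32 in the LAMZ groups. Over all tested genes, this mean was 5.37 and 4.54 in the day 7 and day 14 control groups and 3.42 and 3.86 in the LAMZ groups. The median of the chi-square over members was 0.623 to 1.15 over the groups, as against 0.867 to 1.20 for all tested genes. The mean of 1 is not a reference for these medians.

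Other components of mitochondrial translation were taken from lists. Beside their counts below, 4.35% of all tested genes were called higher and 8.49% lower on day 7, and 6.96% and 16.0% on day 14. Of the mitochondrial ribosomal proteins without an Mrp symbol, 5 were tested. Chchd1 was higher on day 7, at 16.7 and 14.8 RPKM in control and 27.2 and 27.1 in LAMZ libraries (log2 fold change, 0.75; SE 0.20; adjusted p = 0.0435), and Aurkaip1 on day 14, at 19.1 and 19.8 against 25.7 and 29.2 RPKM (0.48; SE 0.14; adjusted p = 0.0401). Both are small subunit proteins. Calls of listed genes were not checked under the alternatives used for the members. Dap3, Ptcd3 and Gadd45gip1 were not called on either day, with log2 fold changes of 0.04 to 0.42.

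None of 27 genes for ribosome assembly and ribosomal RNA modification and none of 15 translation factors was called on either day, and their medians on day 14 were −0.04 and −0.08. At an unadjusted p under 0.05, limma gave 3 of the assembly genes on day 7 and 5 on day 14, and 3 and 1 of the translation factors. Of all tested genes, 28.0% on day 7 and 36.7% on day 14 had such a p-value, and this share also applies to the lists below. A list of aminoacyl-tRNA synthetases, which also holds subunits of the amidotransferase that completes glutaminyl-tRNA (Gatb and Gatc among those tested), had 20 tested genes. Of these, only Gars, which serves the cytosol as well, was higher on day 14 (log2 fold change, 1.09; SE 0.18; adjusted p = 0.00427). None of the 20 was called on day 7, and at an unadjusted p under 0.05 there were 0 on day 7 and 4 on day 14. Averaged over the days, Gars, Kars and Nars2 were higher and Gatb was lower (all tested genes, 9.12% higher and 20.3% lower). The mitochondrial ribosomal RNAs were not called on either day, and 1 had an unadjusted p under 0.05, on day 14: mt-Rnr2, of the large subunit, read 1469 and 1191 RPKM in day 14 control and 2365 and 1638 in day 14 LAMZ libraries (0.57; SE 0.20; adjusted p = 0.0802), and mt-Rnr1, of the small subunit, read 937 and 921 against 1474 and 1107 (0.46; SE 0.23; adjusted p = 0.188). None of the 13 messenger RNAs of mitochondrial DNA was called on either day, with a median of 0.14 on day 7 and −0.10 on day 14, and 1 of them had an unadjusted p under 0.05 on each day.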

How the data were processed

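Total RNA of the 8 samples was extracted with a Maxwell kit and sequenced on an Ion Proton instrument. Reads were mapped to the mouse genome (mm10) in CLC Genomics Workbench, and the authors deposited 1 table of RPKM values per library. RPKM was scaled within each library only. The strand setting and the gene annotation version were not given in the sources used here. Groups were taken from the sample labels. From each table, 4 rows with date-like duplicate symbols were left out. Genes that reached an RPKM of 1 in 2 or more libraries were tested with limma 3.58.1 in R 4.3.3 (lmFit and trended eBayes) on log2(RPKM + 1). A log2 fold change on this scale understates the change of low genes. All 4 groups entered 1 fit with 4 residual degrees of freedom, and p-values were adjusted by Benjamini-Hochberg over all 12514 genes, with calls at an adjusted p under 0.05.

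The deposited values hold whole reads. Mapped reads per library were recovered from the steps of low values (91.6% to 93.9% of 1016 to 1683 values were whole within 0.01 read). A gene's length was taken as the annotated one where that gave whole reads in all libraries, and otherwise as the smallest that did. Intervals from these reads would cover counting error only. The scripts were tested on simulated data.

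Genes were named by rank of level (5 highest, 3 lowest), by call, by distance from the median of the subunit (3 each way and day) and by the change of effect between days (2 each way). Relatives and partners of these (Mrps18a, Mrps18c, Mrps30, Mrpl10, Mrpl44 and Mrpl45), and members that appear under an alternative, were named beside them after values were seen where the rule did not name them. Lists comprised mitochondrial ribosomal proteins without an Mrp symbol, assembly genes, translation factors, aminoacyl-tRNA synthetases, mitochondrial RNAs and markers of osteoblasts, macrophages, endothelium, adipocytes and skeletal muscle. Members and lists were chosen with earlier results of these data known. Positions are from GENCODE M21 (GRCm38, the build of mm10) and promoters from RefSeq. Alternatives were other pseudocounts, filters, scalings, a replicate block, a fit without trend, each day alone, voom on the recovered reads and leaving out each library. The scaling without small structural RNAs and voom were added after seeing the data. Values were handled with pandas 2.3.3 and NumPy 2.4.6, and figures drawn with matplotlib 3.10.9.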

Additional observations from a re-analysis of the deposited data

How the results depend on the processing

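Counts of called members moved with the processing, while none of the named calls turned its direction under any alternative. That direction was largely fixed in advance, since these genes were picked by their calls. A filter, a replicate block, a fit without trend or a library left out of another group also leaves the log2 fold change as it was. On day 7 (2 calls), 0 members were called with no filter, with the day alone or by voom, 1 with the replicate block, 4 with small structural RNAs left out of the scaling and 15 with equal sums. On day 14 (9 calls), 3 were called with no filter and 3 with the day alone. Equal sums gave none of the 9 and 14 other members, all lower. Averaged over the days (3 calls), 5 were called with a filter of RPKM at least 5, 18 after centring and 16 after quantile normalization. Equal sums gave 27, all lower, and the sum without small RNAs gave 5, with 3 lower. Over all 12514 tested genes, equal sums gave 3308 lower on day 7, 5400 on day 14 and 6714 averaged over the days. The difference between days gave 1 call after centring and 1 after quantile normalization. Time in control (3 calls) gave 0 with no filter and 1 each with a pseudocount of 0.1, equal sums, the replicate block and no trend (Mrpl41). Time in LAMZ (2 calls) gave 0 with no filter, 5 with the filter of 5, 8 with equal sums and 4 without small RNAs. It gave 6 after centring and 6 after quantile normalization. Neither of the 2 was called with the replicate block, which gave 1 (Mrps6), or with no trend, which gave 1 as lower (Mrps22). Leaving out 1 library gave 0 to 4 calls on day 7, 1 to 8 on day 14, 1 to 6 averaged, 0 to 0 for the difference, 0 to 2 for time in control and 0 to 2 for time in LAMZ. The causes were not tested, except that fewer libraries enter a fit of 1 day or without a library. Deviations of equal replicate numbers had a correlation of −0.017 on day 7 and 0.016 on day 14. With 2 pairs a day, this cannot decide whether replicate numbers pair the samples. The block gave 8 calls on day 14. With a median of 63 reads per member and library, small changes could not be resolved.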
